A study of Mus musculus with 4 samples.

Results

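Gene ends, the accessible regions lying at the start or the far end of protein-coding genes, were compared between lymph node fibroblastic reticular cells with and without a targeted deletion of Notch2. Overlapping 300-bp windows of an ATAC-seq count table were merged into regions where they lay up to 100 bp apart, and the window with the most counts stood for each region. A region was taken as a gene end when the midpoint of that window lay within 1000 bp of either end of a protein-coding RefSeq gene on an autosome (mouse build mm10). This rule uses position alone and gave 13008 gene ends at 12938 genes, out of 110110 regions in all. A further 45197 autosomal regions lay inside genes and 48307 outside them. The tested mice carried Ccl19-Cre together with Notch2 fl/fl (called Notch2_cKO, 2 libraries). Their controls were littermates with the same floxed Notch2 alleles and no Cre (2 libraries). All animals were female C57BL/6 mice of 12 weeks, and each library pooled the brachial, axillary and inguinal nodes of 6 mice. Cre is driven by Ccl19, a chemokine gene of reticular cells, so deletion is directed to cells that use or once used that promoter. For each library 50000 live cells were sorted as BP3-high, Pdpn-positive, CD31-negative and CD45-negative.

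ATAC-seq uses a transposase to cut and tag open DNA, so a level here is the number of tagged fragments in a region. The start of a gene is where the transcription machinery assembles. It is usually free of nucleosomes, also at many genes that are read only weakly, and it is often open in several cell types, whereas distant enhancers differ more between cell states. Fibroblastic reticular cells build the scaffold of the lymph node and make the chemokines that gather T cells and dendritic cells. Notch receptors are cut when a ligand on a neighbouring cell pulls on them, and the freed fragment joins the DNA-binding protein Rbpj to switch on genes of the Hes and Hey families. Levels are normalized CPM (counts put on one depth, with a loess adjustment that depends on level), for Notch2_cKO replicates 1 and 2 and control replicates 1 and 2 in that order. Each change is a log2 ratio, Notch2_cKO over control, given with its standard error (SE). A gene end is called higher or lower where edgeR's adjusted p, over all 110110 regions, was under 0.05.

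Over the windows that stand for regions, Notch2_cKO libraries held 30260067 and 12340742 counts and controls 23629588 and 25740366. Gene ends took 39.0% and 36.5% of these counts in Notch2_cKO libraries and 40.1% and 40.3% in controls. Control replicate 2 had 221 counts in the region at Ddx3y and 201 at Eif2s3y, both on the Y chromosome, and the other libraries had 0, although every pool is labelled female. Of 11 markers of reticular cells, 8 had a gene end, among them Pdpn (13.7 and 13.6 normalized CPM in Notch2_cKO libraries, 10.7 and 13.0 in controls) and Bst1, which encodes BP3 (29.4 and 29.7 in Notch2_cKO libraries, 31.4 and 32.6 in controls). Neither passed the test. Of the 10 regions at these 8 genes, 1 was called higher, at Dpt, and 0 lower. Dpt had 5.70 and 5.15 normalized CPM in Notch2_cKO libraries and 2.81 and 3.05 in controls. No member region lay at Pecam1, Cdh5, Tie1, Lyve1 or Mmrn1 of the endothelial markers, nor at Ptprc, Cd3e, Cd79a or Itgam of the leukocyte markers. The 4 leukocyte markers with a gene end summed to 50.7 and 51.1 normalized CPM in Notch2_cKO libraries and 54.7 and 51.5 in controls, and those of epithelium to 7.23 and 5.15 in Notch2_cKO libraries and 6.62 and 7.25 in controls. In pooled cells, a change in the share of a cell type and a change of accessibility in each cell cannot be told apart.

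Promoter sequences of 7 genes on which the results below turn are shown first, from RefSeq on GRCm38.p6 (the assembly of mm10), from 250 bases before to 50 bases after the gene's start. These 4 genes had a start that was higher in Notch2_cKO libraries:
Slpi (chr2:164356458-164356757, minus strand): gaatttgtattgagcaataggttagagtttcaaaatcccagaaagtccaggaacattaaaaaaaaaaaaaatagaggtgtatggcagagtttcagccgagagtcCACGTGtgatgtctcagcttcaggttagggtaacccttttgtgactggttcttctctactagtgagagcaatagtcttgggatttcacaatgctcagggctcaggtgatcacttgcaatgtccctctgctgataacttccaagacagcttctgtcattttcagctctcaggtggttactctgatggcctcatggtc
Cxcl14 (chr13:56296502-56296801, minus strand): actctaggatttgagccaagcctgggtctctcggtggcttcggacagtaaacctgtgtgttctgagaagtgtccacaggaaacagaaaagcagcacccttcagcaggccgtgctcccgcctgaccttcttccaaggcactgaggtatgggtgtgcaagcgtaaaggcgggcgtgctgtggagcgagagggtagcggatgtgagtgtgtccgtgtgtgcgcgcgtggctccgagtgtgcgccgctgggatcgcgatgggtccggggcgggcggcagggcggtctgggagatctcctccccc
Dpt (chr1:164796413-164796712, plus strand): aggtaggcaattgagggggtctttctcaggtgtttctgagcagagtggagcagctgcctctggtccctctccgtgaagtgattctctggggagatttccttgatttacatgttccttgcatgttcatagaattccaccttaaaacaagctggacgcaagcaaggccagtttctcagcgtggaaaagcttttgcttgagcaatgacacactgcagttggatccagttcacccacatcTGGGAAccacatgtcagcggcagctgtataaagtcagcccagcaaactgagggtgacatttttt
Lama2 (chr10:27616893-27617192, minus strand): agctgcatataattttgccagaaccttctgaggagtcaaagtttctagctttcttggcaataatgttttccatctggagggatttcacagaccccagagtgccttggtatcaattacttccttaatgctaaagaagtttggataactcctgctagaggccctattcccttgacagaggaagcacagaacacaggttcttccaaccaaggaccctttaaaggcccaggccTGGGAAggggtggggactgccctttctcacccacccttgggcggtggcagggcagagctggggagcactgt
These genes had a start that was lower:
Notch3 (chr17:32166841-32167140, minus strand): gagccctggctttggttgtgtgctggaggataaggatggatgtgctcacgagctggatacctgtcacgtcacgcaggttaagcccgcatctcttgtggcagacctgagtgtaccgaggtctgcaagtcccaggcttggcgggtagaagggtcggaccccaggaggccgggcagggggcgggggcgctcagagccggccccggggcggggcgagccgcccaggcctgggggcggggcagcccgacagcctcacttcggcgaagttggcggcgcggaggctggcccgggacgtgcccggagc
Acta2 (chr19:34255324-34255623, minus strand): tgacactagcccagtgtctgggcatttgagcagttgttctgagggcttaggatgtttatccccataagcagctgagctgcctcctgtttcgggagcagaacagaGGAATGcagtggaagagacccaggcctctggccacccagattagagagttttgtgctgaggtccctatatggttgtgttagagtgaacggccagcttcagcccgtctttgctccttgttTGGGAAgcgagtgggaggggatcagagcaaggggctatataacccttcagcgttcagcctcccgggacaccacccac
Colec11 (chr12:28623281-28623580, minus strand): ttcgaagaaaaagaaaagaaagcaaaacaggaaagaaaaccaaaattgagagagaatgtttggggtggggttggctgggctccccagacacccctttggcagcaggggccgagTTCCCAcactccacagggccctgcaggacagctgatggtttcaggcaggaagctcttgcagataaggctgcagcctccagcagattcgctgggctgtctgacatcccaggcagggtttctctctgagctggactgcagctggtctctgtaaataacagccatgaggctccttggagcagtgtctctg
Capitals mark the letters TGGGAA of Rbpj, TGANTCA of AP-1, GGAATG of TEAD and CACGTG of E-box factors, searched on both strands. The Rbpj and TEAD letters can overlap at GGAA. Dpt and Lama2, both higher, held the Rbpj letters 14 and 21 bases before the start, and Acta2, which was lower, held them 27 bases before it. Colec11, also lower, had them on the reverse strand 137 bases before the start, while the Notch3 promoter had none of the letters in this window. A match is a description of letters, not of binding.

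Most gene ends differed little between the genotypes, and those that did differed in both directions. Of the 13008 gene ends, 760 were higher in Notch2_cKO libraries (5.84%) and 579 were lower (4.45%), 10.3% in all. Among all 110110 regions, 12.4% were higher and 11.3% lower. A higher end was found at 815 genes and a lower end at 614, with 14 genes holding one of each. The 2 Notch2_cKO libraries lay beyond both controls at 756 of the 760 higher and 578 of the 579 lower ends. Groups did not overlap at 47.6% of all gene ends and 59.8% of all regions, so non-overlap alone says little. Most changes were small. The median size was 0.62 on the log2 scale for higher ends (0.24 to 4.20) and 0.67 for lower ends (0.24 to 2.88). At least 2-fold changes made up 174 higher (1.34%) and 144 lower ends (1.11%), against 5.49% and 4.41% of all regions. The balance of directions depended on the scaling. Higher ends were 56.8% of the calls with loess offsets, but 30% with TMM factors over all regions (705 higher, 1644 lower), 32.1% with DESeq2 (304 higher, 644 lower) and 16.1% with each library centred on its median (496 higher, 2593 lower). Median centring moved the median log2 change of all gene ends to -0.15, against 0.01 with loess offsets. No gene end called here was called the opposite way under any of these. Leaving out a library also moved the counts, to 778 higher and 1378 lower without Notch2_cKO replicate 1, 1679 and 674 without Notch2_cKO replicate 2, 361 and 315 when control replicate 1 was dropped, and 348 and 300 when control replicate 2 was.

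**Figure D1:**
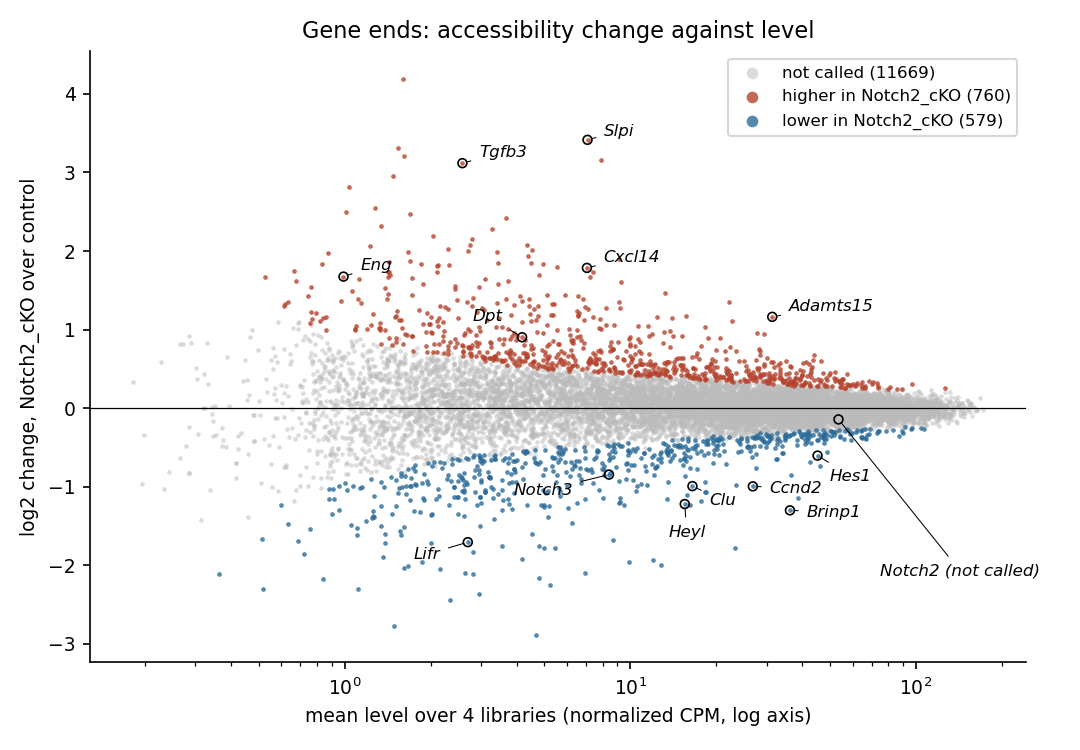
Each point is 1 of the 13008 gene ends, with its mean level over the 4 libraries in normalized CPM (log axis) against its log2 change, Notch2_cKO over control; red points are called higher (760), blue points lower (579) and grey points are not called (11669). The cloud narrows with level, and Slpi, Tgfb3 and Cxcl14 stand above it while Brinp1, Lifr and Heyl stand below.

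Gene ends were open regions of high level, and the most open ones changed least often. Their median level was 22.3 normalized CPM, against 3.43 over all regions. In the 20% of gene ends with the lowest level (up to 4.89 normalized CPM), 9.88% were higher and 8.11% lower. In the 20% with the highest level (from 51.0) only 1.61% were higher and 1.50% lower. Other autosomal regions of the same level were called more often in each of these groups. From 15.4 to 29.7 normalized CPM, for example, 4.57% of gene ends were higher and 3.42% lower, against 16.2% and 11.3% of the other regions. Of the 13008 gene ends, 8885 lay at a start, 1467 at the far end of a gene and 2656 at a gene whose strand the sequence table did not give. At starts 434 were higher (4.89%) and 311 lower (3.5%), with a median level of 28.2 normalized CPM. At far ends 155 were higher (10.6%) and 134 lower (9.13%), with a median level of 3.20. Starts and far ends therefore differ in level as well as in the share called. Where a region lay at the ends of 2 or more genes, as at 1698 of them, 4.06% were higher and 2.41% lower. Regions whose midpoint lay 900 to 1000 bp from a gene end (351, median level 4.80 normalized CPM) were called in 17.7% of cases, and those just outside the rule, at 1001 to 1100 bp (347, median level 5.52), in 17.6%.

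**Figure D2:**
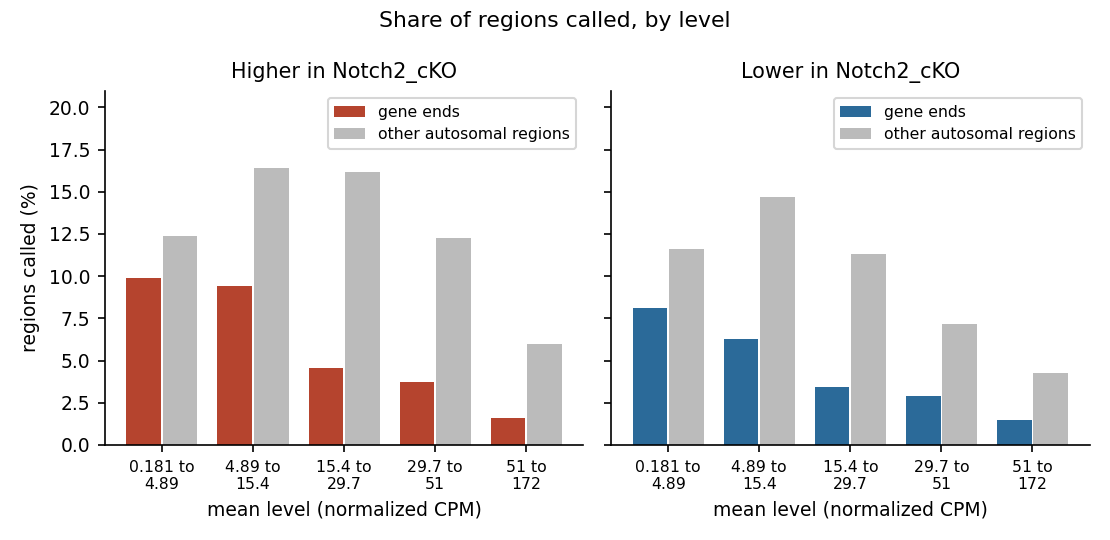
Bars give the share of regions (%) called higher (left panel) and lower (right panel) in Notch2_cKO libraries, in groups of 20% of gene ends by mean level in normalized CPM, for gene ends (coloured) and for other autosomal regions of the same level (grey). In every group the gene ends were called less often, down to 1.61% higher and 1.50% lower in the highest.

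Slpi, Tgfb3 and Adamts15 were among the 12 higher gene ends of smallest p. Slpi encodes a secreted inhibitor of leukocyte proteases. Its start (chr2:164356501-164357150, promoter shown above) had 13.2 and 12.7 normalized CPM in Notch2_cKO libraries and 1.24 and 1.18 in controls. The groups were far apart and the pools within each nearly equal, a log2 change of 3.42 (SE 0.20, edgeR adjusted p = 1.83e-09). Tgfb3 encodes a ligand of the TGF-beta family. The region 507 bp from its end had 4.44 and 4.83 normalized CPM in Notch2_cKO libraries and 0.661 and 0.399 in controls, close to the level of few counts (136 and 63 in Notch2_cKO libraries, 15 and 10 in controls). Its log2 change was 3.12 (SE 0.28, edgeR adjusted p = 2.43e-07). Cxcl14, which was not among these 12, encodes a chemokine found in medullary and other non-T-zone stroma. At its start there were 13.2 and 8.53 normalized CPM in Notch2_cKO libraries and 3.51 and 3.00 in controls, so the pools of Notch2_cKO mice differed from each other but both exceeded the controls (log2 1.78, SE 0.20, edgeR adjusted p = 3.34e-06). Adamts15 encodes a protease that cuts the proteoglycan versican. It was more open than Slpi, Tgfb3 and Cxcl14, with 46.1 and 40.6 normalized CPM in Notch2_cKO libraries and 18 and 20.9 in controls (log2 1.16, SE 0.12). The start of Cdh9, a cadherin gene outside the 12, had 20.2 and 23.2 normalized CPM in Notch2_cKO libraries and 9.11 and 9.94 in controls, again without overlap.

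Other ends among the 12 of smallest p that rose lay at Adcy7, St8sia4, Mefv, Skap1 and Tprkb. Adcy7 encodes an enzyme that makes cyclic AMP. Its start had 12.7 and 10.1 normalized CPM in Notch2_cKO libraries and 3.29 and 3.67 in controls, and its far end, within reach of Brd7 as well, rose too. St8sia4 encodes an enzyme that adds polysialic acid to proteins. Its start had 16.8 and 12.0 normalized CPM in Notch2_cKO libraries and 3.33 and 4.50 in controls. Mefv, which encodes the inflammasome protein pyrin, had 7.91 and 6.08 normalized CPM in Notch2_cKO libraries and 1.83 and 1.58 in controls. Skap1 encodes an adaptor of T cell signalling, and its end had 5.78 and 5.07 normalized CPM in Notch2_cKO libraries and 1.15 and 1.11 in controls. It lies on chromosome 11, in a neighbourhood with a median log2 change of 0.31. The largest fold among called ends was at Tprkb, which encodes a part of a complex that modifies transfer RNA. It rested on 107 and 33 counts in Notch2_cKO libraries against 5 and 3 in controls (log2 4.20, SE 0.39). Further regions of this group lie at Atrn, Vxn and Olfr70, an olfactory receptor gene whose end is 1000 bp away.

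Brinp1, Rapsn and Pcdh10 were among the 12 lower gene ends of smallest p. Brinp1 encodes a protein of the nervous system that restrains the cell cycle. Its start had 21.4 and 20.3 normalized CPM in Notch2_cKO libraries and 53.6 and 49.6 in controls (log2 -1.30, SE 0.11), and 8 of 12 other regions of the gene were lower. The gene lies in a neighbourhood that was lower as a whole, with a median log2 change of -0.58 over regions within 500000 bp. Rapsn encodes a protein that clusters acetylcholine receptors on muscle. It had 2.69 and 2.56 normalized CPM in Notch2_cKO libraries and 10.3 and 12.2 in controls, with a neighbourhood median of only 0.03. Pcdh10 encodes a protocadherin. Its far end had 0.843 and 1.62 normalized CPM in Notch2_cKO libraries and 9.27 and 7.01 in controls, the lowest log2 change among called gene ends (-2.88, SE 0.26).

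Other lower ends lay at Rab39, Amotl1, Lifr and Ccnd2. Rab39 encodes a small GTPase of vesicle traffic. Its start had 4.36 and 3.59 normalized CPM in Notch2_cKO libraries and 14.5 and 17.2 in controls, while the neighbourhood did not move (median log2 -0.02). Amotl1 encodes an angiomotin-like protein that binds YAP, and its start had 1.69 and 1.85 normalized CPM in Notch2_cKO libraries and 6.32 and 6.86 in controls. Lifr encodes the receptor of leukaemia inhibitory factor. At its start there were 1.24 and 1.30 normalized CPM in Notch2_cKO libraries and 4.06 and 4.19 in controls, a log2 change of -1.71 (SE 0.23). Ccnd2 encodes cyclin D2, which drives cells into the cycle. It had 17.7 and 18.2 normalized CPM in Notch2_cKO libraries and 36.4 and 35.1 in controls (log2 -0.996, SE 0.12, edgeR adjusted p = 4.44e-06). The pools of a genotype were nearly equal at Lifr and Ccnd2, and the genotypes were well apart. Slamf9, an immune receptor gene, and Tctn3, a gene of the primary cilium, fell at their far ends, to 1.65 and 1.93 normalized CPM in Notch2_cKO libraries against 8.24 and 7.41 in controls, and to 0.846 and 1.15 against 4.78 and 5.06. The region at Ephb6, a receptor of the Eph family, is shared with the calcium channel gene Trpv6 and had 1.88 and 1.70 normalized CPM in Notch2_cKO libraries and 8.73 and 8.66 in controls.

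**Figure D3:**
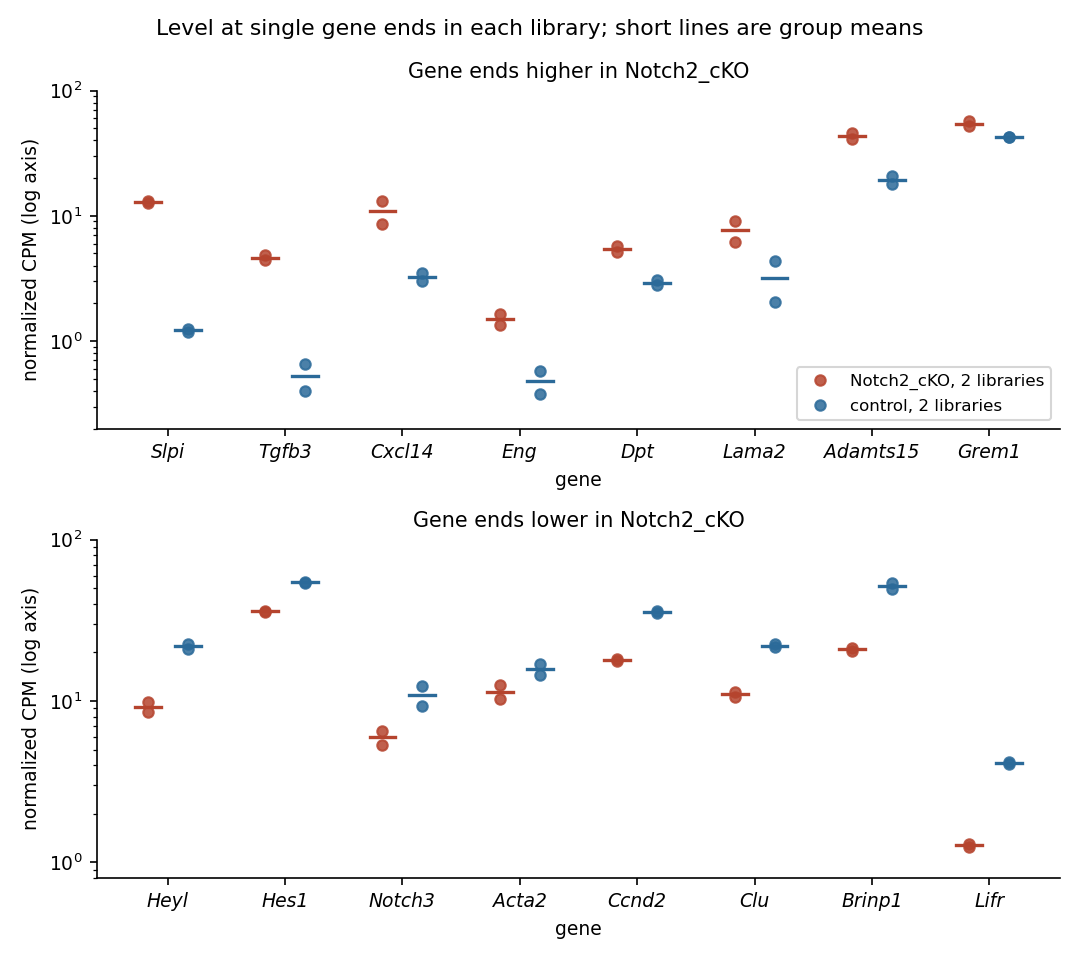
Points are the normalized CPM (log axis) of single libraries at 8 gene ends called higher (upper panel) and 8 called lower (lower panel), with Notch2_cKO (red) left of control (blue); short lines are means of 2 libraries. At all 16 the genotypes do not overlap, with the widest gap at Slpi and the narrowest at Grem1 and Acta2.

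The targeted gene and its pathway were examined next. The start of Notch2 had 55.26 and 46.2 normalized CPM in Notch2_cKO libraries and 55.29 and 57.5 in controls. Notch2_cKO replicate 1 lay just under control replicate 1, so the groups barely missed overlapping, and the gene was not called (log2 -0.14, SE 0.10, edgeR adjusted p = 0.340), although it was called lower with median centring and without Notch2_cKO replicate 1. Which exons are floxed is not stated, so this region does not check the deletion. Among 41 gene ends of Notch receptors, ligands and signal transducers, 2 were higher and 1 lower, with a median log2 of 0.02, close to the 0.01 of all gene ends. Notch3, a receptor best known in mural cells, had 6.53 and 5.36 normalized CPM in Notch2_cKO libraries and 9.32 and 12.5 in controls (log2 -0.85, SE 0.18, edgeR adjusted p = 0.00150). Lfng, which encodes an enzyme that adds sugars to Notch, was higher, with 26.0 and 20.8 normalized CPM in Notch2_cKO libraries and 15.9 and 14.7 in controls. Dll4, a ligand gene, was higher as well (28.1 and 23.4 in Notch2_cKO libraries, 18.7 and 18.9 in controls), but lost its call under 6 of 15 alternatives, including the removal of either control. Jag1, another ligand, had 82.8 and 82.5 normalized CPM in Notch2_cKO libraries and 84.6 and 74.9 in controls and was not called, nor were Notch1 and Rbpj.

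Gene ends of Notch target genes were mostly lower where they were called. Of 15 ends, 5 were lower (33.3%, against 4.45% of all gene ends) and 1 was higher, with a median log2 of -0.16. Heyl, a transcriptional repressor of the Hey family, showed the greatest fall. Its end at chr4:123233401-123234050 had 9.90 and 8.55 normalized CPM in Notch2_cKO libraries and 22.7 and 20.9 in controls (log2 -1.22, SE 0.14, edgeR adjusted p = 4.38e-06), and 3 of 5 other regions of the gene were lower. Its other end had 14.5 and 12.8 normalized CPM in Notch2_cKO libraries and 14.0 and 13.2 in controls and was not called. Hes1, a repressor of the Hes family, had 35.5 and 36.4 normalized CPM in Notch2_cKO libraries and 54.2 and 54.9 in controls at one end (log2 -0.60, SE 0.10, edgeR adjusted p = 0.000135). At its other end it was higher, with 14.2 and 15.3 in Notch2_cKO libraries and 9.16 and 11.4 in controls. Myc and Hey1 fell less, by 0.36 and 0.38 on the log2 scale, and Notch3 is counted here too. Not called were Hey2 (94.7 and 96.1 normalized CPM in Notch2_cKO libraries, 108.4 in each control), Nrarp, Hes5, Id3, Jag1, Dtx1 and Ccnd1. With the other scalings 6 of these ends were lower, and 3 without either control. This list was drawn up with earlier results of these data known.

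Most ends of genes that mark the subsets of lymph node stroma were not called, and the called ones changed in different directions. Among 21 ends of adventitial and progenitor fibroblast genes, 6 were higher (28.6%) and 0 lower, and no alternative gave a lower call. Of all gene ends 5.84% were higher and 4.45% lower. The list's median level was 8.5 normalized CPM, and 9.42% of gene ends from 4.89 to 15.4 normalized CPM were higher. Dpt encodes dermatopontin, a matrix protein of perivascular fibroblasts. Its start had 5.70 and 5.15 normalized CPM in Notch2_cKO libraries and 2.81 and 3.05 in controls (log2 0.90, SE 0.19, edgeR adjusted p = 0.00160). Igfbp6, which binds insulin-like growth factors, had 15.9 and 16.9 normalized CPM in Notch2_cKO libraries and 11.6 and 10.2 in controls. Sema3c, Col15a1, Cd34 and Ackr3 rose by 0.38 to 0.57 on the log2 scale. Sema3c lost its call under 7 of 15 alternatives, each scaling included. At medullary and interfollicular genes 2 of 10 were higher (20%) and 0 lower, Cxcl14 and the BMP-family gene Gdf10 (log2 0.64). With each other scaling, and without Notch2_cKO replicate 2, 1 of these 10 was also called lower. The adventitial count was 2 with DESeq2 and without control replicate 2, and 3 without Notch2_cKO replicate 1 or control replicate 1.

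At T-zone reticular genes 1 of 18 ends was higher (5.56%) and 2 were lower (11.1%), against 5.84% and 4.45% of all gene ends. Grem1, a BMP antagonist of T-zone stroma, was high in every library and slightly higher in Notch2_cKO ones, with 56.8 and 52.2 normalized CPM against 42.6 and 42.9 in controls (log2 0.35, SE 0.10, edgeR adjusted p = 0.0111). Its call was lost under 6 of 15 alternatives, all 4 other scalings among them. Tnfrsf11b encodes osteoprotegerin, a decoy receptor. It had 9.55 and 7.45 normalized CPM in Notch2_cKO libraries and 16.7 and 14.8 in controls, in a neighbourhood with a median log2 of -0.50. Ptgs1, a gene of prostaglandin synthesis, was lower with an edgeR adjusted p of 0.0492 and kept its call under only 6 of 15 alternatives. At B-zone, marginal and follicular dendritic cell genes 5 of 18 ends were higher (27.8%) and 3 lower (16.7%). Sostdc1 encodes a secreted antagonist of BMP and Wnt. It had 18.8 and 20.0 normalized CPM in Notch2_cKO libraries and 7.59 and 9.76 in controls (log2 1.15, SE 0.15). Sox9, a transcription factor gene, rose at both ends. Clu, which encodes the chaperone clusterin, changed in opposite directions, to 11.3 and 10.6 normalized CPM in Notch2_cKO libraries against 22.5 and 21.5 in controls at one end, with a rise of 0.33 on the log2 scale at the other. Madcam1, an adhesion molecule of marginal reticular cells and of vessels, and Cr2, a complement receptor of follicular dendritic cells, fell by 0.58 and 0.54 on the log2 scale.

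Contractile genes of mural cells were lower where they were called. Of 24 ends 5 were lower (20.8%) and 0 higher (1 higher with TMM factors and with the replicate block). Over all gene ends 4.45% were lower and 5.84% higher. The list's median log2 was 0.11, above 0. Tagln, a protein of smooth muscle, had 9.81 and 8.55 normalized CPM in Notch2_cKO libraries and 14.8 and 16.3 in controls (log2 -0.74, SE 0.15). Acta2, smooth muscle actin, had 10.2 and 12.6 normalized CPM in Notch2_cKO libraries and 16.9 and 14.5 in controls. Myh11, Itga7 and Tpm1 fell by 0.43 to 0.50 on the log2 scale. The Acta2 call was lost with DESeq2, with TMM factors from gene ends alone, and without Notch2_cKO replicate 1 or control replicate 1. Without Notch2_cKO replicate 2 the list had 4 higher and 5 lower ends. The 6 fixed mural markers all had a gene end, and these summed to 125.6 and 130.6 normalized CPM in Notch2_cKO libraries and 142.7 and 141.7 in controls. Notch3, Myh11 and Acta2 were the lower ones. Rgs5, Kcnj8 and Cspg4, markers of pericytes, were not called. Cspg4 had 3.79 and 4.00 normalized CPM in Notch2_cKO libraries and 6.15 and 4.79 in controls, without overlap (log2 -0.49, SE 0.19, edgeR adjusted p = 0.0694). The part of mural cells in the pools in these results was not tested. Of endothelial genes 2 of 21 ends were higher, at Tek and Eng, and 2 lower, at Madcam1 and Kdr. The far end of Kdr, a VEGF receptor, had 0.764 and 1.142 normalized CPM in Notch2_cKO libraries and 1.79 in each control. Tek, an angiopoietin receptor, had 23.7 and 26.3 normalized CPM in Notch2_cKO libraries and 15.7 and 14.0 in controls. Erg, Prox1 and Flt4 were not called. With Tek, these 4 endothelial markers that had a gene end summed to 59.7 and 60.1 in Notch2_cKO libraries and 50.1 and 45.5 in controls, most of the difference coming from Tek.

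**Figure D4:**
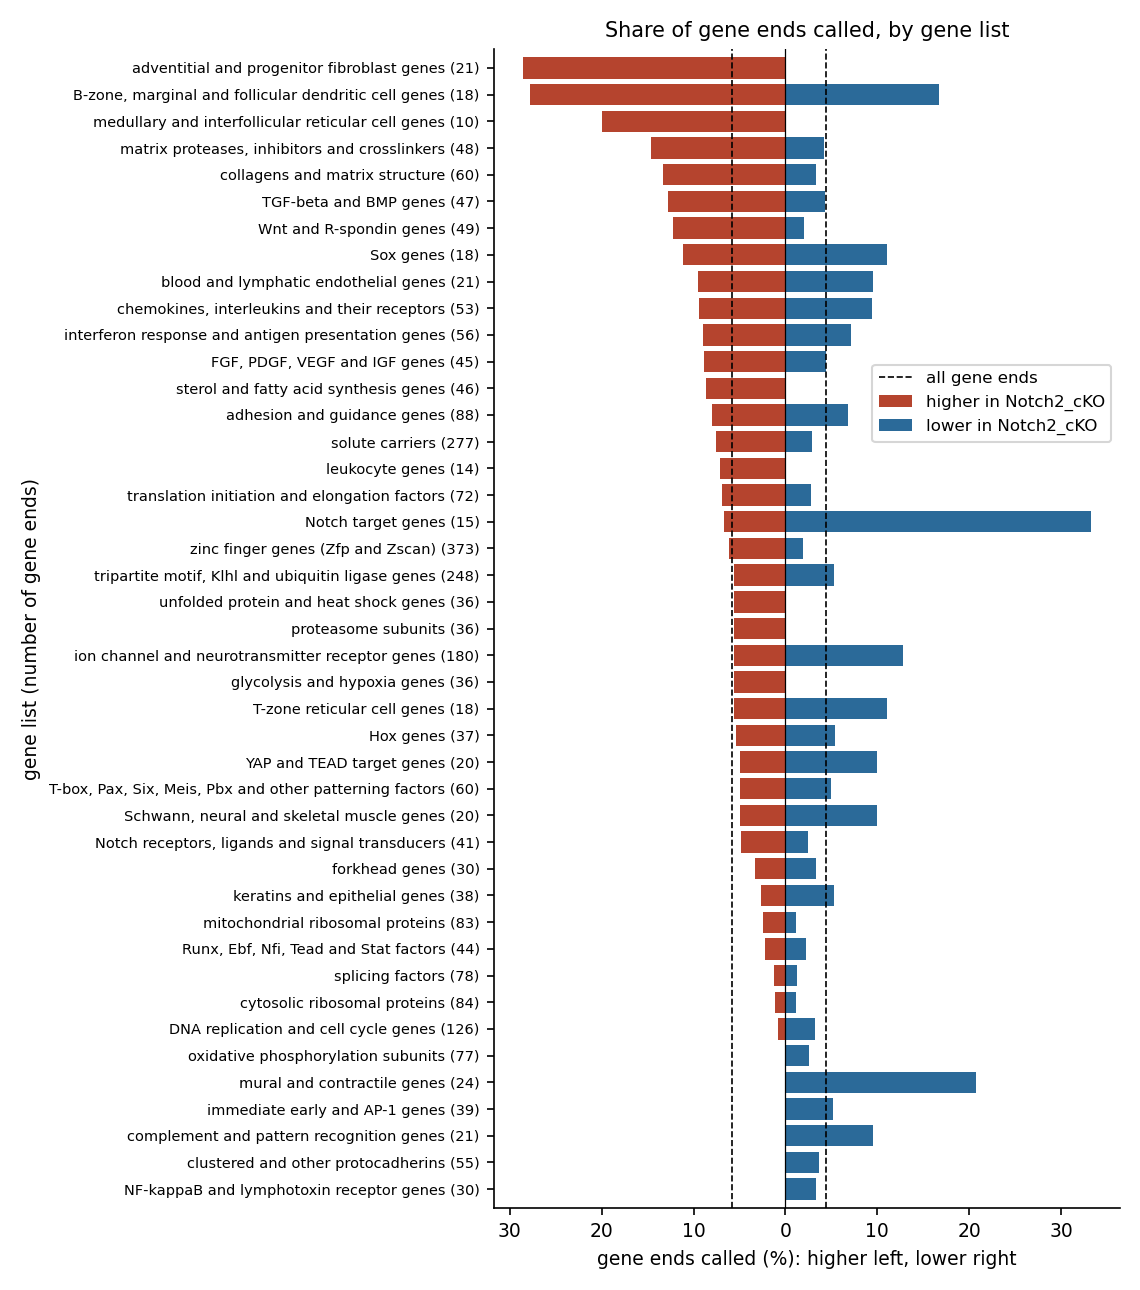
Bars give, for each of 43 gene lists, the share (%) of its gene ends called higher in Notch2_cKO libraries (red, to the left) and lower (blue, to the right), with the number of ends in brackets; dashed lines mark the shares over all gene ends (5.84% higher, 4.45% lower). Adventitial genes reach 28.6% higher and Notch targets 33.3% lower, while ribosomal proteins, splicing factors and oxidative phosphorylation subunits stay under 3% in either direction.

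Genes of the extracellular matrix were more often higher than lower. Among 60 ends of collagen and matrix structure genes 8 were higher (13.3%) and 2 lower (3.33%), against 5.84% and 4.45% of all gene ends. Higher calls outnumbered lower ones under each alternative run. Lama2, which encodes a laminin chain of basement membranes, had 9.14 and 6.17 normalized CPM at its start in Notch2_cKO libraries and 4.32 and 2.06 in controls, with wide spread within each genotype but no overlap (log2 1.33, SE 0.25). Smoc2, a matricellular protein, had 12.0 and 9.32 in Notch2_cKO libraries and 5.15 and 4.77 in controls, and 6 of 12 other regions of the gene were higher. Thbs2, a thrombospondin, had 51.0 and 50.8 in Notch2_cKO libraries and 36.9 and 33.8 in controls. Lum, Fbln2, Col15a1, Fbln5 and Sparc rose by 0.35 to 1.24 on the log2 scale. Ltbp1 and Emilin2, proteins of microfibrils and elastic fibres, fell by 0.50 and 0.46, Emilin2 at its far end. Of 48 ends of proteases, inhibitors and crosslinkers 7 were higher and 2 lower, but 5 and 7 without Notch2_cKO replicate 1. Htra1, a secreted serine protease, had 5.58 and 5.61 normalized CPM in Notch2_cKO libraries and 2.4 and 2.1 in controls at its far end. Bmp1, Loxl1 and Adamts5 rose as well. Adamts4, an aggrecan-cutting protease, fell to 10.1 ± 0.94 normalized CPM in Notch2_cKO libraries, against 21.5 ± 1.7 in controls (SD, n = 2 each).

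Ligands, receptors and antagonists of the TGF-beta, BMP and Wnt pathways included more higher than lower ends with loess offsets. Higher and lower shares were 12.8% and 4.26% at TGF-beta and BMP ends, and 12.2% and 2.04% at Wnt and R-spondin ends. All gene ends had 5.84% and 4.45%. Among 47 TGF-beta and BMP ends 6 were higher and 2 lower, but 5 higher and 10 lower with TMM factors, 3 and 5 with DESeq2, 5 and 13 with median centring, and 4 and 12 without Notch2_cKO replicate 1. Beside Tgfb3, Sostdc1, Grem1 and Gdf10, the higher ones were Bmp7 and Eng, a TGF-beta co-receptor. The region at Eng lies at its far end and is shared with Fpgs. It had 1.65 and 1.35 normalized CPM in Notch2_cKO libraries and 0.377 and 0.581 in controls. Bmp6, a ligand, and Bmpr1a, a receptor, fell by 0.53 and 0.29 on the log2 scale. Of 49 Wnt and R-spondin ends 6 were higher and 1 lower. Fzd4, Fzd7 and Ror2, receptors of Wnt proteins, and Wnt10a, a ligand, rose by 0.52 to 0.85 on the log2 scale. The regions at Fzd4 and Fzd7 lie at the far ends of these genes. Sfrp1 and Frzb, secreted Wnt antagonists, rose by 0.35 and 0.42. Rspo2, which enhances Wnt signals, fell to 7.45 and 7.72 normalized CPM in Notch2_cKO libraries against 13.1 and 11.8 in controls. This balance reversed with TMM factors (5 higher, 6 lower), median centring (4 and 7) and without Notch2_cKO replicate 1 (3 and 4). Growth factor genes had 4 higher and 2 lower ends of 45. Fgf7, a growth factor made by stroma, had 18.2 and 17.4 normalized CPM in Notch2_cKO libraries and 11.2 and 11.7 in controls. At its far end Fgfr4, a receptor, had 3.73 and 3.23 in Notch2_cKO libraries and 6.42 and 6.33 in controls.

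Chemokine, interleukin and receptor genes had 5 higher and 5 lower ends of 53 (9.43% each, against 5.84% and 4.45% of all gene ends). Beside Cxcl14, the higher ends were at Ccl11, Il17ra, Ackr3 and Il15, and the lower ones at Lifr, Ccl5, Cxcl2, Ccl11 and Il18. Cxcl2, which attracts neutrophils, had 11.3 and 14.2 normalized CPM in Notch2_cKO libraries and 23.8 and 18.9 in controls. Ccl11, which attracts eosinophils, rose at one end and fell at the other (log2 1.39 and -0.65). NF-kappaB and lymphotoxin receptor genes, which drive the maturation of lymph node stroma, had 1 lower and 0 higher ends of 30, the lower one at Traf1 (log2 -0.47). Immediate early and AP-1 genes, which respond to cell stress and handling, had 2 lower and 0 higher ends of 39, at Rgs1 and Batf2. Both shares are close to or under those of all gene ends. Interferon and antigen presentation genes had 5 higher and 4 lower of 56. Cd74, the invariant chain of antigen presentation by MHC class II, had 30.1 and 28.2 normalized CPM in Notch2_cKO libraries and 14.8 and 20.5 in controls, and Tapbp, B2m, Irf7 and Dhx58 rose too. Rsad2, an antiviral enzyme, had 11 and 12.2 in Notch2_cKO libraries and 19.7 and 18.2 in controls. Irf5 also fell, as did Ifit1 and Bst2 at their far ends. Complement and pattern recognition genes had 2 lower and 0 higher ends of 21. Colec11, a lectin of the complement system, had 6.27 and 4.51 normalized CPM in Notch2_cKO libraries and 12.6 and 13.2 in controls.

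Lists of transcription factor genes were called at shares below, near and above the 10.3% of all gene ends. Hox genes had 2 higher and 2 lower of 37 (10.8% called), with Hoxd9 among both. Forkhead genes had 1 of each among 30, and the Runx, Ebf, Nfi, Tead and Stat factors 1 of each among 44. Runx2, known from bone, had 2.91 and 3.30 normalized CPM in Notch2_cKO libraries and 1.85 and 1.72 in controls. Of 25 other regions of the gene 8 were higher and 2 lower. The Runx2 end kept its call under 12 of 15 alternatives. Patterning factors had 3 higher and 3 lower of 60 (10% called). Nr2f2, a nuclear receptor of venous and mesenchymal cells, fell at its far end. There it had 10.7 and 11.4 normalized CPM in Notch2_cKO libraries against 19.7 and 20.2 in controls. Irx3 and Mkx also fell, while the far end of Dlx2 was among the higher ones. Sox genes had 2 higher and 2 lower ends of 18 (22.2% called). Sox11 and Sox8 fell at their far ends, by 0.90 and 0.92 on the log2 scale, and Sox9 was the only Sox gene that rose. Zinc finger genes, often repressors, had 23 higher and 7 lower of 373, but 15 and 33 with TMM factors, 8 and 10 with DESeq2 and 10 and 64 with median centring.

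Few ends of housekeeping genes were called, and ion channel genes had more lower than higher calls. Cytosolic ribosomal proteins had 1 higher and 1 lower of 84, splicing factors 1 and 1 of 78, and oxidative phosphorylation subunits 0 and 2 of 77. These are genes of high level at their ends, with list medians of 30.6, 33.1 and 30.4 normalized CPM. With TMM factors, under which lower calls were more frequent among all gene ends, the lower counts were 13, 10 and 9. DNA replication and cell cycle genes had 1 higher (Aurkb) and 4 lower (Ccnd2, Cdk18, Cenpo and the far end of Ccna1) of 126, but 1 and 30 with TMM factors. Ion channel and neurotransmitter receptor genes, at a list median of 6.15 normalized CPM, had 10 higher (5.56%) and 23 lower (12.8%) of 180, but 27 and 18 without Notch2_cKO replicate 2. Among all gene ends 5.84% were higher and 4.45% lower, and among those from 4.89 to 15.4 normalized CPM 9.42% and 6.3%. Cacng7, which regulates glutamate receptors, had 35.4 and 34.1 in Notch2_cKO libraries and 57.5 and 58.4 in controls. Ryr2, the calcium release channel of heart muscle, had 8.31 and 6.25 in Notch2_cKO libraries and 15.6 and 13.6 in controls, and 10 of 12 other regions of the gene were lower. Solute carriers had 21 higher and 8 lower of 277, but 17 and 27 with TMM factors, 15 and 38 with median centring and 20 and 22 without Notch2_cKO replicate 1. Slc6a12, a transporter of betaine and GABA, changed in opposite directions at its ends (log2 -1.78 and 1.00), and Slc6a6, a taurine transporter, had 18.5 and 18.1 normalized CPM in Notch2_cKO libraries and 8.57 and 10.0 in controls. In the sterol and fatty acid list, Srebf1, a regulator of lipid synthesis, and Lpl, lipoprotein lipase, rose with Acly and Scd1. These were 4 of 46 ends, and 0 were lower. Srebf1 and Lpl kept their calls under all 15 alternatives, Acly under 9 and Scd1 under 10. Srebf1 and Acly lie on chromosome 11. With TMM factors that list had 3 higher and 6 lower.

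A changed gene end went with changes at other regions of its gene. Among 658 higher ends whose gene had other regions, 53.8% had at least 1 higher region elsewhere in the gene and 18.8% a lower one. For 506 lower ends, 27.3% had a higher region elsewhere and 48.4% a lower one. For 9779 ends that were not called these shares were 31.7% and 26.4%. The regions of a gene share their libraries and their neighbourhood, so these shares are a description. In 29 genes both ends were called, in the same direction in 17 of them. Edn1, which encodes the vasoconstrictor endothelin 1, rose at its start (19.6 and 15.0 normalized CPM in Notch2_cKO libraries, 10.2 and 10.4 in controls) and at its far end (1.99 and 2.44 in Notch2_cKO libraries, 0.599 and 0.692 in controls). Gpr182, an atypical chemokine receptor of lymphatic endothelium, fell at both. Fcgr4, an antibody receptor of myeloid cells, rose at its start (log2 1.64) and fell at its far end (log2 -1.39). That fall rests on 24 and 7 counts in Notch2_cKO libraries and 29 and 61 in controls.

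Calls were uneven along the genome. On chromosome 11, 159 of 1079 gene ends were higher and 9 lower, with a median log2 of 0.19, the highest of the 19 autosomes. Relative to the mean of the 4 libraries, its gene ends had median log2 levels of 0.17 and -0.03 in Notch2_cKO replicates 1 and 2 and -0.11 and -0.06 in controls. Without Notch2_cKO replicate 1 the median was 0.07, against -0.05 on the other autosomes in the same fit. From 50 to 110 Mb, each 10-Mb stretch of chromosome 11 had a median log2 of 0.19 to 0.26, and between 20 and 30 Mb the median was 0.02. Chromosome 12 went the other way, with 23 higher and 44 lower of 492 ends and a median of -0.07. Its first 30 Mb held 29 of those 44 lower ends. Gene ends whose surroundings were shifted by 0.2 or more on the log2 scale were called mostly in the direction of the shift. There were 231 higher and 24 lower among 1599 in raised neighbourhoods, and 14 higher and 115 lower among 611 in lowered ones. In the 10727 whose surroundings were shifted by less, the counts were 512 higher (4.77%) and 435 lower (4.06%). A neighbourhood value could be had for 12937 gene ends, and Pcdh10 and Cdh9 are among those without one. Skap1, Srebf1 and Sox9 lie in raised neighbourhoods, with medians of 0.31, 0.43 and 0.25, and Brinp1, Tnfrsf11b and Colec11 in lowered ones, from -0.42 to -0.58. Raised medians also surrounded the higher ends at Dpt (0.23), the Adcy7 start (0.24), Fgf7 (0.26), Ror2 (0.25), Sfrp1 (0.22) and Tprkb (0.21). Lowered ones surrounded the lower ends at Ephb6 (-0.40) and Rspo2 (-0.34). Notch3, which was lower, and Sema3c, which was higher, went against their surroundings (0.22 and -0.41). Slpi, Adamts15, Sostdc1, Heyl, Rab39 and Rapsn had neighbourhood medians between -0.06 and 0.10. Whether a whole chromosome or neighbourhood moved with genotype or with single pools was not tested.

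**Figure D5:**
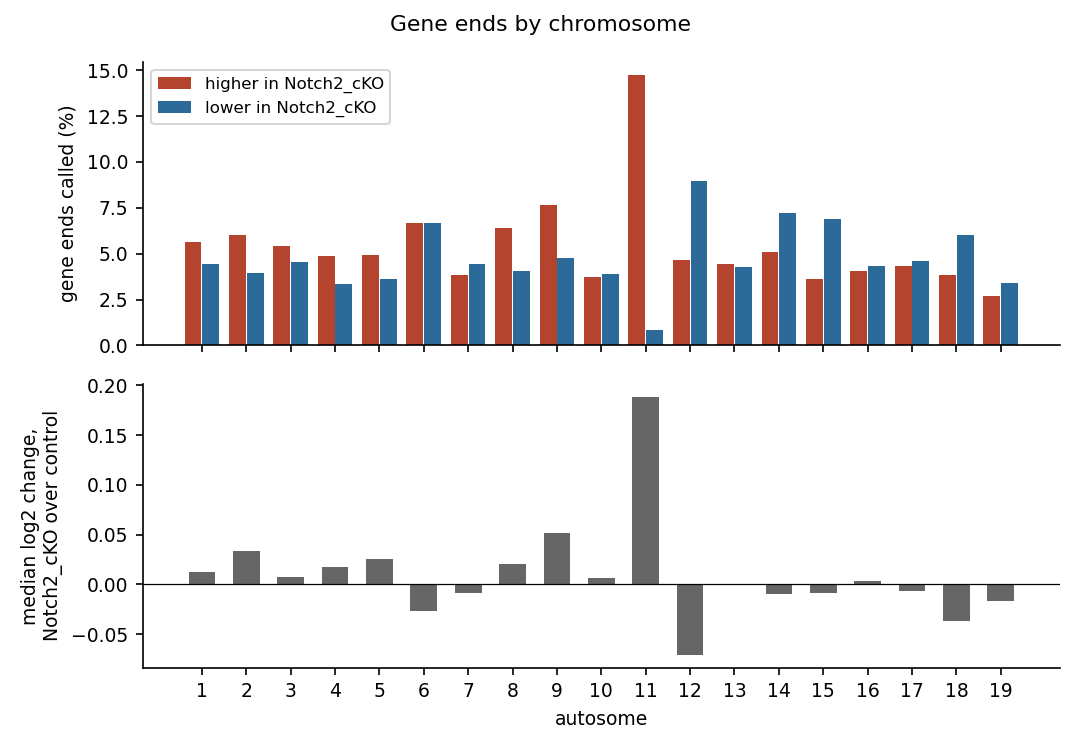
The upper panel gives the share (%) of gene ends called higher (red) and lower (blue) in Notch2_cKO libraries on each of the 19 autosomes, and the lower panel the median log2 change, Notch2_cKO over control. Chromosome 11 stands out with 14.7% higher, 0.834% lower and a median of 0.19, and chromosome 12 has the lowest median, -0.07.

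Promoter sequence was at hand for 7850 gene ends, 362 of them higher and 244 lower. Promoters poor in CpG, the class of tissue-restricted genes, were called more often. In the 20% with the lowest observed over expected CpG 8.73% were higher and 6.56% lower, and in the 20% with the highest 2.04% and 2.68%. The CpG-poorest also had a lower median level (14.7 against 36.3 normalized CPM). The Rbpj letters TGGGAA stood in 24.3% of higher, 29.9% of lower and 22.6% of uncalled promoters, against 25.6% of all 32851 promoters in the table. CpG-poor promoters (ratio under 0.6) numbered 146 higher, 110 lower and 1583 uncalled, and those with a ratio of at least 0.6 numbered 216, 134 and 5661. Shares by CpG class therefore rest on few called promoters. Among CpG-poor promoters the Rbpj letters stood in 32.2%, 40.9% and 31.7%. Among the more numerous promoters with a ratio of at least 0.6 the shares were close together, at 19%, 20.9% and 20%. The AP-1 letters TGANTCA stood in 9.67% of higher, 4.10% of lower and 4.50% of uncalled promoters (7.81% of all), in 15.8%, 8.18% and 8.28% of CpG-poor ones and in 5.56%, 0.746% and 3.44% of the others. The TEAD letters GGAATG differed less, at 13.0%, 11.5% and 11.2% (14.7% of all). The ETS letters CCGGAAG stood in 13.3% of higher, 11.1% of lower and 19% of uncalled promoters (8.86% of all), in 6.16%, 2.73% and 11.1% of CpG-poor ones and in 18.1%, 17.9% and 21.2% of the others.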

How the data were processed

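ATAC-seq libraries of sorted lymph node reticular cells from 2 Notch2_cKO and 2 control pools were analysed. The replicates are separate pools of 6 mice per the labels. The submitters' processing notes name the build mm10 and the tools Bowtie2 2.4.5, Trim Galore 0.6.7 and cutadapt, with SAMtools 1.14, deepTools, and Picard 2.27.5. Per the labels, csaw made the deposited counts. How reads and windows were filtered, and whether cut sites were shifted for the transposase, is not given in the sources used here.

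Whole-number counts for 678058 windows of 300 bp at steps of 50 bp were deposited by the authors. Though labelled as loess normalized, the values are whole numbers and the libraries' totals over regions differed up to 2.45-fold. They were therefore treated as counts without normalization, although an earlier adjustment that varied with level could not be seen in whole numbers. Fragments without molecular identifiers are not independent molecules. Chi-square per gene end was 5.38 between Notch2_cKO pools and 2.35 between controls, so no library was counted as a copy of another.

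Windows up to 100 bp apart were merged, and each region was represented by its window of highest summed count. Genes were the 21900 protein-coding genes of a RefSeq table (GRCm38.p6), and strand was known for the 17492 with a promoter sequence. Loess offsets were computed with limma 3.58.1 and genotype was fitted with edgeR 4.0.16 (quasi-likelihood test) over all 110110 regions in R 4.3.3. Benjamini-Hochberg adjustment ran over all of them. The SE was taken from the F statistic, as the size of the log2 change divided by its square root. A neighbourhood median covers regions within 500000 bp, without those within 10000 bp. Other regions of a gene lie within it or within 10000 bp of it. DESeq2 1.42.0 was an alternative, and Python 3.11.15 with matplotlib 3.10.9 was used for annotation and figures. The fit was also run on simulated counts with the same dispersion in all libraries and no shifted chromosome. That run does not cover the unequal spread of the pools or the shift of chromosome 11.

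Named were Notch2 and the cell type markers, the 12 called gene ends of smallest p and the 8 of highest level in each direction with groups that did not overlap, up to 4 called ends of smallest p from each of 43 gene lists, and up to 6 genes called at both ends. Other called members of a list are given with their change where its count is described, chosen after their values were seen. Results for a few of these genes are left out of the text. The members and the lists were chosen with earlier results of these data known. The labels do not say whether pools of the same replicate number belong together, and the main fit assumed no pairing. The correlation of their deviations was -0.27 over gene ends.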

Additional observations from a re-analysis of the deposited data

How the results depend on the processing

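Against 760 higher and 579 lower gene ends, the replicate block, which assumes that equal replicate numbers pair the pools, gave 526 and 471, of which 520 and 455 were shared with the fit without it. With the numbers crossed, chosen after seeing the data, the counts were 1356 higher and 1085 lower. Leaving out 1 library gave 348 to 1679 higher and 300 to 1378 lower ends, on the assumption that the lone library left in a group varies as much as the other genotype's. DESeq2 gave 304 higher ends (644 lower), median centring 496 higher and 2593 lower, and TMM factors 1644 lower (705 higher). An adjusted p under 0.01 left 352 higher and 299 lower, a change of at least 2-fold 174 and 144, and gene starts alone 434 and 311. Within 2000 bp of a gene end there were 1183 higher (848 lower). Counts stayed within 1.5-fold in both directions with TMM factors from gene ends alone, loess offsets without X and Y regions, the lowest 25% of regions left out, limma, windows up to 500 bp apart merged, the middle window, ends within 500 bp, without chromosome 11, and with shifted neighbourhoods left out (512 and 435, added after seeing the data). A similar count need not hold the same ends. TMM factors from gene ends alone gave 842 higher and 620 lower. Of the 760 and 579 called here, 673 higher and 406 lower were among them. With limma 642 and 545 were shared. No called end was called the opposite way under any of these fits.

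Of 173 named called gene ends, 86 kept their call under all 15 alternatives and 8 changed sign under some. These 8 are highly open starts with small rises. With median centring the log2 change was -0.141 at Npat, -0.0429 at Map9, -0.091 at Pdcd6, -0.0765 at Mis12, -0.0481 at Amn1, -0.0673 at Tmsb10, -0.0219 at Cep20 and -0.039 at Mnt. With TMM factors it was -0.0561 at Npat and -0.007 at Pdcd6, and with DESeq2 -0.0508 at Npat and -0.0017 at Pdcd6. Low counts limit ends such as Tprkb, Eng and Zbtb39, whose lower group held under 25 counts in each library.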

Other observations

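Several gene ends of very high level were called with small changes. Npat, a regulator of histone genes that shares its promoter with Atm, had 130.0 and 146.1 normalized CPM in Notch2_cKO libraries and 119.7 and 111.2 in controls (log2 0.26, SE 0.08). Gen1, a resolvase of DNA repair that shares its region with Smc6, had 76.3 and 77.2 in Notch2_cKO libraries and 103.2 and 93.5 in controls (log2 -0.36, SE 0.09), in a neighbourhood with a median log2 of -0.56 on chromosome 12. Klf11 and Laptm4a, on the same chromosome, fell by 0.32 and 0.26 on the log2 scale.

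Among 248 ends of tripartite motif, Klhl and ubiquitin ligase genes 14 were higher (5.65%) and 13 lower (5.24%), but 14 and 41 with TMM factors. Both shares are close to those of all gene ends, 5.84% and 4.45%. The higher ends at Trim16, Trim17, Trim37, Rnf43, Rnf112, Rnf167, Rnft1 and Usp43 lie on chromosome 11, and the others do not. Cul4a, a scaffold of ubiquitin ligases, had 9.14 and 8.03 normalized CPM in Notch2_cKO libraries and 3.78 and 2.65 in controls at its far end. Unfolded protein and heat shock genes had 2 higher ends of 36, Chac1 and Trib3, and glycolysis and hypoxia genes 2 higher of 36, Slc2a3, a glucose transporter, and Bnip3, a mitochondrial protein induced by low oxygen. Neither list had a lower end with loess offsets, while TMM factors gave 7 and 2 lower ends. Among protocadherins 2 of 55 ends were lower, Pcdh10 and Pcdh1, and 0 were higher. YAP and TEAD targets had 1 higher and 2 lower of 20. Nt5e, which encodes the ecto-enzyme CD73, had 19.9 and 19.6 normalized CPM at its start in Notch2_cKO libraries and 11 and 9.91 in controls (log2 0.92, SE 0.14). Translation factors had 5 higher and 2 lower of 72, mitochondrial ribosomal proteins 2 and 1 of 83, and proteasome subunits 2 and 0 of 36. Keratin and epithelial genes had 1 higher and 2 lower of 38, adhesion and guidance genes 7 and 6 of 88, Schwann, neural and skeletal muscle genes 1 and 2 of 20, and leukocyte genes 1 and 0 of 14. The 1 leukocyte gene, Cd68, shares its region with Eif4a1.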
